A study of Mus musculus with 12 samples.

Results

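The account below concerns 39 marker genes of macrophages, measured in regulatory T cell (Treg) preparations from spleen and perigonadal fat of mice. Each gene was read through all probes of a bead array whose platform symbol is that gene. A probe was found for 38 of these symbols, 61 of 45281 probes in all, while Cd68, a lysosomal glycoprotein of macrophages, is not a symbol of the annotation used here. A probe was kept when its detection p-value was below 0.05 on at least 3 of 12 arrays, which left 48 member probes of 35 genes among 20367 probes. The 12 arrays form 4 groups of 3: spleen and perigonadal fat of control mice, and spleen and perigonadal fat of T-bet knockout mice, all C57BL/6 and on a chow diet. Control mice, labelled Foxp3Cre, carried the Foxp3-YFP-Cre allele. Knockout mice, labelled Tbetflox Foxp3Cre, carried the same allele with a floxed Tbx21, the gene for the transcription factor T-bet, so that all 4 groups share the Cre allele, which is driven by Foxp3 and acts in Foxp3-expressing cells. The labels call the cells regulatory T cells and give neither the gate used to isolate them, nor the age or sex of the mice, nor how many animals stand behind an array.

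Macrophages of adipose tissue take up debris, immune complexes and lipid. Their usual markers serve those tasks: complement C1q, Fc receptors with their signalling adaptors, scavenger and lectin receptors, lysosomal proteases and lipid carriers. Their identity rests on the transcription factor PU.1, encoded by Spi1, with C/EBP factors beside it, and on signalling through the receptor Csf1r. Tregs are T cells that restrain other immune cells under the transcription factor Foxp3, and those of visceral fat live among macrophages. Several of the markers, among them the cathepsins and Cst3, are also made by other leukocytes.

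Markers of the labelled cell type were present in every group: over all 12 arrays Foxp3 ranged from 6.39 to 9.23 on the scale used throughout, the log2 of background-corrected, quantile-normalized bead signal, and Cd3e, a subunit of the T cell receptor complex, from 10.06 to 11.54. The single Tbx21 probe read 5.50, 7.27 and 5.17 in the fat controls against 6.62, 7.57 and 4.94 in the fat knockouts, and 4.54, 4.88 and 5.19 in the spleen controls against 4.69, 5.74 and 4.72 in the spleen knockouts. The genotypes overlapped in both tissues. Where this probe lies relative to the floxed segment is not given in the sources used here, so "knockout" stands for a library labelled T-bet knockout throughout. Between 27.0 and 40.9% of all probes were detected per array. Arrays of a group correlated at 0.777 to 0.841 in the fat controls, 0.825 to 0.840 in the fat knockouts and 0.869 to 0.909 in the spleen groups. The labels do not say whether arrays of a group came from separate animals, so p-values measure the spread between arrays, which may be technical.

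The first question was whether the markers differ between Treg preparations of fat and spleen. In control mice the fat arrays carried more signal for most macrophage markers, led by the lectin Clec10a, the scavenger receptor Cd163, lysozyme Lyz2 and the lipid carrier Apoe. Of the 48 member probes 20 rose in fat (41.7%), where 2.9% of all kept probes rose, and 0 fell, where 1.77% of all kept probes fell (limma, Benjamini-Hochberg adjusted p below 0.05 over all kept probes, no fold threshold). The median log2 fold change, fat minus spleen, was +2.00 over the member probes and -0.05 over all kept probes. The size changed with the processing: the member median was 1.19 with no background correction and 1.09 with the deposited normalized table, and in knockouts 0.83 and 0.76 in place of the 1.61 given next. In knockout mice 15 of the 48 member probes rose (31.2%, against 2.83% of all kept probes) and 0 fell (1.7% of all kept probes), with medians of +1.61 for the members and -0.07 for all kept probes. By gene, taking for each the kept probe with the highest mean over the 12 arrays, 14 of 35 rose in controls and 11 in knockouts. The control count rests partly on single spleen arrays: without spleen control 1 it was 10 of 48 probes and without spleen control 2 it was 13. Without fat control 3, the array highest for 28 of 35 genes, the control count was 14. Without spleen knockout 1 the knockout count was 5. Over all kept probes, higher calls in controls fell from 590 to 303, 372 and 514 without spleen control 1, spleen control 2 and fat control 3. Those in knockouts fell from 576 to 309 without spleen knockout 1.

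Signals of the 2 tissues often did not overlap at all. All 6 fat arrays lay above all 6 spleen arrays for 16 of the 35 genes (45.7%), against 4.3% of all kept probes, and these were C1qb, C1qc, Fcgr3, Fcer1g, Tyrobp, Cd163, Mrc1, Cd14, Clec10a, Ms4a7, Aif1, Lyz2, Cst3, Apoe, F13a1 and Cebpb. Averaged over the 35 genes, the log2 signal was 7.97, 7.13 and 9.14 in the fat controls and 7.24, 7.97 and 7.77 in the fat knockouts. The spleen controls read 5.39, 6.07 and 6.51 and the spleen knockouts 5.71, 5.91 and 5.85, so the lowest fat array stood above the highest spleen array. Of the 61 member probes 46, 33 and 48 were detected on the fat control arrays and 36, 46 and 44 on the fat knockout arrays, against 12, 26 and 32 on the spleen control and 14, 23 and 21 on the spleen knockout arrays. In such bulk samples fewer cells of a type and less RNA per cell cannot be told apart.

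**Figure D1:**
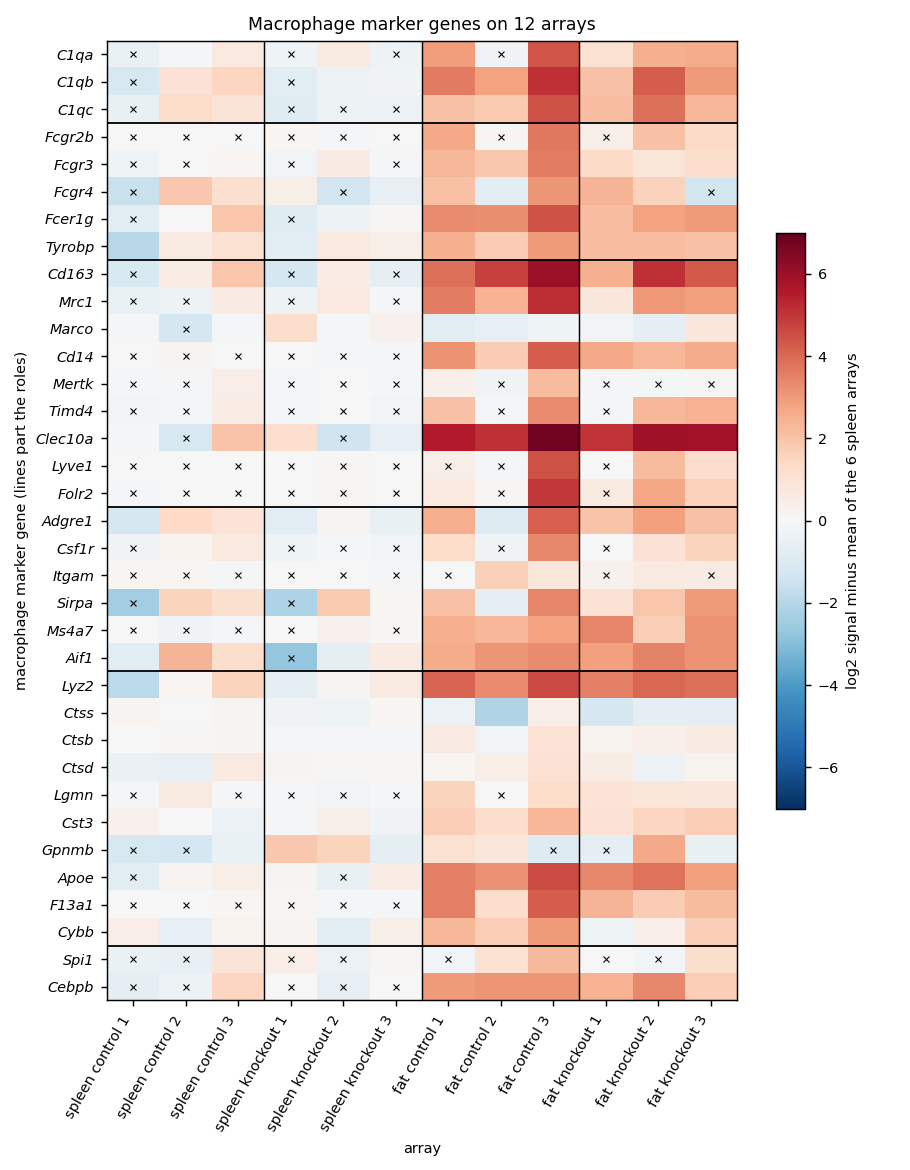
Colour gives the log2 signal of the 35 kept macrophage marker genes (rows, grouped by role) on each of the 12 arrays (columns) minus the mean of that gene over the 6 spleen arrays, and a cross marks an array on which the probe was not detected (detection p of 0.05 or more). The fat arrays are above the spleen mean for most genes, fat control 3 has the highest fat value for 28 of 35 genes, and Ctss and Marco show no such rise.

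Complement C1q is the recognition subunit of the classical pathway, built from 3 chains whose genes lie side by side on chromosome 4 (GRCm38.p6, 136880126 to 136898844). C1qb read 9.12, 8.32 and 10.64 in the fat controls and 4.38, 6.50 and 7.01 in the spleen controls. In the knockouts it read 7.52, 9.72 and 8.48 in fat and 4.68, 5.15 and 5.27 in spleen. Fat lay above spleen in both genotypes without overlap, by +3.40 (moderated standard error, SE, 0.76, limma adjusted p 0.0249) in controls and +3.54 (SE 0.76, adjusted p 0.0204) in knockouts. C1qc read 7.57, 9.27 and 7.70 in the knockout fat arrays and was not detected on the 3 knockout spleen arrays (4.54, 5.05 and 4.97). Its difference was +3.33 (adjusted p 0.0206), with the fat mean 7.83-fold above the detection floor. That floor is the lowest signal any detected probe had on the spleen arrays compared. Folds over the floor, here and below, are point estimates and not lower limits. The C1qc difference in controls was +2.23 (SE 0.71, adjusted p 0.108). C1qa was detected on 5 of 6 fat arrays and varied more, with 8.13, 4.96 and 9.62 in the fat controls, and its differences of +2.36 in controls (adjusted p 0.188) and +2.07 in knockouts (adjusted p 0.271) did not pass. Calls for C1qb and C1qc were lost on leaving out single arrays, 4 arrays in turn for each of the 3 calls, and with no detection filter (adjusted p 0.0928 and 0.0872 for C1qb and 0.0854 for C1qc). The 2 knockout calls were also lost with no background correction (adjusted p 0.0593 and 0.0834) and with the deposited normalized table (adjusted p 0.0698 and 0.0974).

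The Fc receptors bind the constant part of antibodies, and Fcer1g and Tyrobp are the adaptors that carry their signal and that of many other myeloid receptors. Fcgr2b, Fcgr4, Fcgr3 and Fcer1g lie on 1 stretch of chromosome 1 (170960558 to 171234349). Fcer1g read 8.93, 8.90 and 10.07 in the fat controls against 4.85, 5.60 and 7.58 in the spleen controls, a rise of +3.29 (SE 0.61, adjusted p 0.00956). Its rise in knockouts was +3.05 (SE 0.61, adjusted p 0.0146), from 4.80, 5.26 and 5.69 in spleen to 7.80, 8.48 and 8.61 in fat. Fcgr3, the low-affinity activating receptor for IgG, read 7.15, 6.71 and 8.44 in the fat controls and 4.56, 4.83 and 4.97 in the spleen controls, a rise of +2.65 (SE 0.43, adjusted p 0.00435). In knockouts its fat values of 6.21, 5.72 and 6.07 lay nearer to those of spleen at 4.64, 5.41 and 4.69, and the difference of +1.09 did not pass (SE 0.43, adjusted p 0.205). Tyrobp was detected on all 12 arrays and read 10.13 to 11.33 in fat and 6.42 to 9.42 in spleen, so that the tissues did not overlap, yet neither difference passed (+2.49, adjusted p 0.0611 in controls and +2.02, adjusted p 0.134 in knockouts). Tyrobp passed under 7 of 21 other settings in controls, among them the replicate block and the deposited normalized table, and under 1 in knockouts.

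Fcgr2b, the inhibitory member of the family, was not detected on any spleen array. Its brightest probe read 7.13, 4.56 and 8.17 in the fat controls, a mean 3.29-fold above the floor, and did not pass (adjusted p 0.126). Its other kept probe passed in controls (adjusted p 0.0367, with 6.78, 5.28 and 7.63 in fat). Fcgr4, a receptor for IgG2 complexes, ranged from 4.77 to 9.12 in fat and 4.49 to 7.94 in spleen and passed in neither genotype (adjusted p 0.718 and 0.614). Fcgr1, the high-affinity receptor, was detected on 1 array, fat knockout 1, at 6.86, and was not kept.

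By the probe used, the largest differences of single genes were those of Clec10a and Cd163, both scavenger and phagocytic receptors. The medians of the 9 kept receptors of this role were +1.95 in controls and +1.62 in knockouts. Both were below those of complement C1q, +2.36 and +3.33. Clec10a, a lectin of macrophages and dendritic cells that binds galactose-type sugars, read 11.46, 11.02 and 12.65 in the fat controls and 5.74, 4.79 and 7.92 in the spleen controls. The knockouts gave 10.98, 11.86 and 11.77 in fat and 7.09, 4.52 and 5.35 in spleen. All 6 fat arrays were thus above 10.9 and all 6 spleen arrays below 8, with rises of +5.55 (SE 0.80, adjusted p 0.00217) and +5.88 (SE 0.80, adjusted p 0.00159). Cd163, the receptor for haptoglobin-haemoglobin, read 9.42, 10.37 and 11.55 in the fat controls against 4.54, 6.07 and 7.53 in the spleen controls, a rise of +4.40 (SE 0.85, adjusted p 0.0115). Its rise in knockouts was of like size, +4.42 (SE 0.85, adjusted p 0.012), from 4.37, 6.07 and 4.90 in spleen to 8.05, 10.71 and 9.85 in fat. A second Cd163 probe had the same sign and did not pass (+2.02, adjusted p 0.235 in controls and +1.96, adjusted p 0.266 in knockouts). Both Cd163 calls were lost without replicate 1 of the spleen group of that genotype.

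Mrc1, the mannose receptor CD206 of tissue-resident macrophages, read 8.55, 7.40 and 10.13 in the fat controls and 4.53, 4.65 and 5.58 in the spleen controls, a rise of +3.78 (SE 0.72, adjusted p 0.0104). In the fat knockouts it read 5.78, 8.02 and 7.84, and the difference from spleen of +2.16 did not pass (SE 0.72, adjusted p 0.126). Cd14, the co-receptor for lipopolysaccharide, was not detected on any of the 6 spleen arrays and on all 6 fat arrays, with 7.66, 6.31 and 8.77 in controls and 7.20, 6.86 and 7.12 in knockouts. It was at least 6.40-fold higher in fat of controls (adjusted p 0.00433) and at least 3.60-fold higher in fat of knockouts (adjusted p 0.0103). With the deposited normalized table its log2 fold change was 1.39 in controls, where it passed, and 1.05 in knockouts, where it did not (adjusted p 0.075), and with no background correction it was 1.51 and 1.17 (adjusted p 0.0599 in knockouts).

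Markers of tissue-resident macrophages with a narrower range were carried by few arrays. Lyve1, a hyaluronan receptor, read 4.86, 4.38 and 8.91 in the fat controls and 4.45, 6.65 and 5.69 in the fat knockouts, and Folr2, the folate receptor beta, read 5.21, 4.57 and 9.43, then 5.14, 7.21 and 6.12. Neither was detected in spleen, and fat control 3 was the highest array for both. Timd4, which binds phosphatidylserine on dying cells, read 6.70, 4.56 and 7.96 in the fat controls and 4.54, 7.0 and 7.07 in the fat knockouts. Mertk, a kinase receptor for engulfment of dying cells, was detected on 2 fat control arrays (4.98 and 6.87), on spleen control 3 (5.11) and on no knockout array. Their adjusted p values ran from 0.299 to 0.979 over the 2 genotypes. Marco, a scavenger receptor of marginal zone macrophages in spleen, was not higher in fat, with 5.06 to 6.57 in fat and 4.63 to 7.03 in spleen, and did not pass (-0.07, adjusted p 0.96 and -0.51, adjusted p 0.652). The lipid sensor Trem2 was detected on fat control 1 at 5.88 and fat control 3 at 6.86 alone, and the scavenger receptor Msr1 on 0 of 12 arrays, so neither was kept. At the other side of the limit, Lyve1, Mertk and Itgam were kept with exactly 3 arrays detected.

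Differences of the 6 surface and lineage markers, by the probe used, ran from +0.80 to +2.68 in controls and +0.54 to +4.09 in knockouts. Of these markers 1 was called in controls and 2 in knockouts, against 2.9% and 2.83% of all kept probes called higher. Ms4a7, a membrane protein of tissue macrophages, read 7.38, 7.11 and 7.61 in the fat controls and was not detected on the 3 spleen control arrays. In fat of controls Ms4a7 stood 5.50-fold above the floor (adjusted p 0.00303). Among knockouts it rose by +2.65 (SE 0.41, adjusted p 0.00332), from 4.82, 5.12 and 4.87 to 8.24, 6.55 and 7.97. Aif1, the actin-bundling protein IBA1, read 10.15, 10.75 and 10.39 in the fat knockouts and 4.58, 6.57 and 7.87 in the spleen knockouts, a rise of +4.09 (SE 0.82, adjusted p 0.0146). In controls its brightest probe gave +2.07 (SE 0.82, adjusted p 0.198), with 9.87, 10.38 and 10.59 in fat against 6.46, 9.63 and 8.52 in spleen, while its other 2 probes passed (+2.50, adjusted p 0.0424 and +2.37, adjusted p 0.0174).

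Adgre1, the adhesion receptor most used to mark mouse macrophages, did not pass in either genotype. It was detected on all 12 arrays, with 9.14, 5.66 and 10.75 in the fat controls against 5.38, 7.96 and 7.57 in the spleen controls (+1.55, SE 1.04, adjusted p 0.476). The fat knockouts at 8.60, 9.44 and 8.66 lay above the spleen knockouts at 5.79, 6.76 and 6.05 (+2.70, SE 1.04, adjusted p 0.193). Fat control 2 was below all 3 fat knockouts and without it Adgre1 passed in both genotypes, at adjusted p 0.0483 and 0.0392. Csf1r, the receptor for the growth factor that macrophages need, read 6.08, 4.54 and 8.12 in the fat controls and 4.80, 5.81 and 6.35 in the fat knockouts (adjusted p 0.392 and 0.49 against spleen). Sirpa, an inhibitory receptor for CD47, spread from 4.35 to 8.62 in spleen and 6.11 to 10.23 in fat, and its brightest probe did not pass (adjusted p 0.583 and 0.459). A dimmer Sirpa probe, not detected in spleen, passed in controls (adjusted p 0.0241). Itgam, the integrin CD11b of myeloid cells, stayed near the detection limit with 4.54, 6.20 and 5.32 in the fat controls and 4.80, 5.13 and 5.09 in the fat knockouts (adjusted p 0.295 and 0.525).

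Among lysosomal and secreted products, Lyz2, the lysozyme of macrophages and neutrophils, read 11.36, 10.60 and 11.89 in the fat controls against 5.39, 7.46 and 8.85 in the spleen controls. The knockouts gave 10.81, 11.31 and 11.17 in fat and 6.67, 7.48 and 7.90 in spleen. It rose by +4.05 (SE 0.71, adjusted p 0.00674) and +3.75 (SE 0.71, adjusted p 0.0104), and all 3 of its probes passed in both genotypes. Apoe, a lipoprotein carrier, had the smallest adjusted p of the members in controls, with 8.92, 8.63 and 10.003 in fat and 4.62, 5.58 and 5.85 in spleen (+3.83, SE 0.47, adjusted p 0.000762). It read 8.79, 9.23 and 8.32 in the fat knockouts and 5.63, 4.88 and 5.95 in the spleen knockouts (+3.29, SE 0.47, adjusted p 0.00216).

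F13a1, the A subunit of coagulation factor XIII, was not detected on any spleen array and read 7.96, 5.71 and 8.70 in the fat controls and 6.85, 6.21 and 6.68 in the fat knockouts. The fat means stood 5.86-fold above the floor in controls (adjusted p 0.0131) and 2.58-fold in knockouts, where F13a1 did not pass (adjusted p 0.064). Cst3, the secreted protease inhibitor cystatin C, was bright in both tissues and rose in controls from 9.75, 9.49 and 9.03 to 11.15, 10.66 and 11.77 (+1.77, SE 0.38, adjusted p 0.0199). Its difference in knockouts was +1.39 (SE 0.38, adjusted p 0.0614) and passed under 7 of 21 other settings. Cybb, the membrane subunit of the phagocyte NADPH oxidase, read 8.55, 7.91 and 9.19 in the fat controls and 6.66, 5.64 and 6.45 in the spleen controls (+2.30, SE 0.55, adjusted p 0.0338). The fat knockouts at 5.91, 6.67 and 7.95 overlapped the spleen knockouts at 6.39, 5.47 and 6.62 (+0.68, SE 0.55, adjusted p 0.59). The Cybb call in controls was lost on leaving out any of 6 single arrays.

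The 4 member proteases of the lysosome did not pass the test. Ctss, cathepsin S, was bright in spleen (9.95 to 10.46) and in fat (8.19 to 10.73), with differences of -0.82 (SE 0.51, 95% interval -1.94 to 0.30, adjusted p 0.442) in controls and -0.68 (SE 0.51, 95% interval -1.80 to 0.44, adjusted p 0.564) in knockouts. Ctsb, cathepsin B, read 10.40 to 10.72 in spleen and 10.35 to 11.49 in fat (+0.37, adjusted p 0.594 and +0.49, adjusted p 0.494). Ctsd, cathepsin D, read 6.85 to 8.03 in spleen and 7.0 to 8.41 in fat (+0.66, adjusted p 0.414 and -0.02, adjusted p 0.99). Lgmn, the asparaginyl endopeptidase legumain, was dimmer, at 4.48 to 5.26 in spleen and 4.70 to 6.22 in fat (adjusted p 0.28 and 0.219). Gpnmb, a glycoprotein of lipid-laden macrophages, was scattered over single arrays, with 8.37 on fat knockout 2, 7.62 and 7.31 on spleen knockouts 1 and 2, and 6.81 and 6.52 on fat controls 1 and 2 (adjusted p 0.507 and 0.852).

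Of the 2 transcription factors, Cebpb, the C/EBP factor of myeloid cells and adipocytes, read 7.98, 8.07 and 8.06 in the fat controls against 4.35, 4.64 and 6.52 in the spleen controls (+2.86, SE 0.55, adjusted p 0.0112). In knockouts it read 7.44, 8.35 and 6.70 in fat, by their mean 4.87-fold above the floor, and was not detected in spleen (adjusted p 0.0168). Spi1 read 4.89, 6.14 and 7.35 in the fat controls and 5.05, 4.87 and 6.31 in the fat knockouts, within reach of the spleen arrays at 4.52 to 5.99, and did not pass (+1.08, adjusted p 0.397 and +0.28, adjusted p 0.872).

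**Figure D2:**
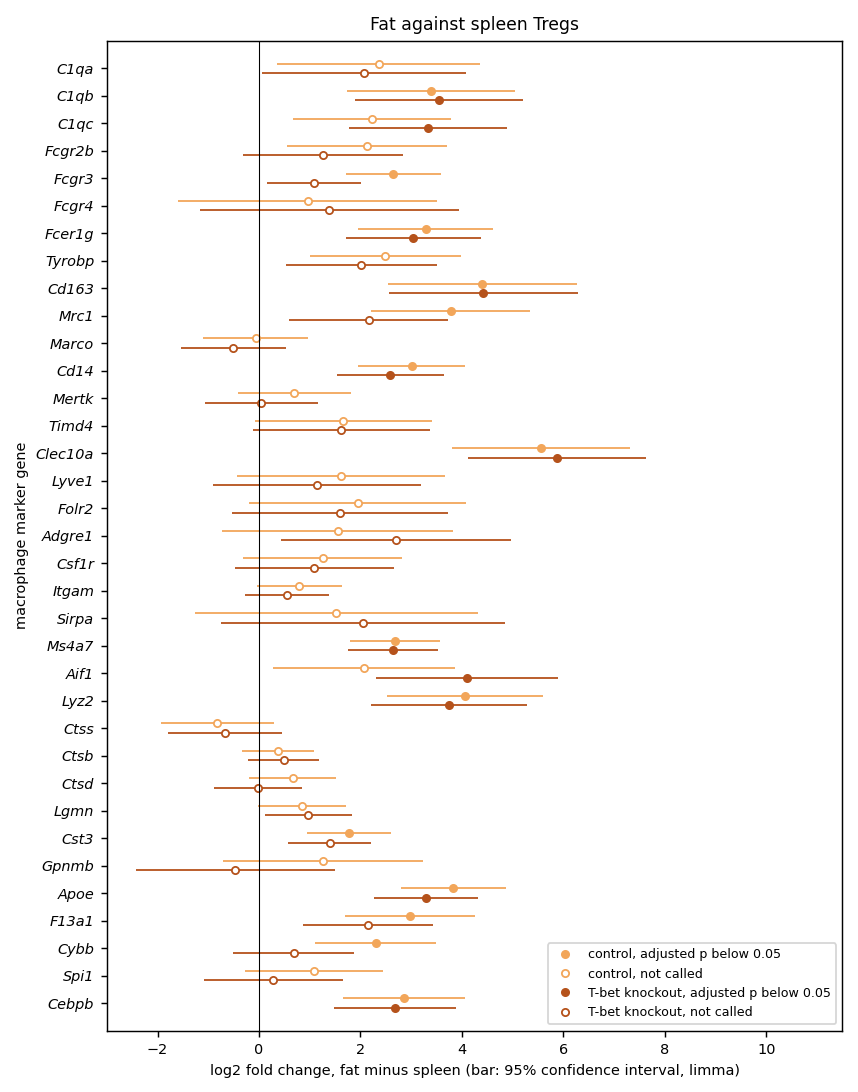
Points give the log2 fold change, fat minus spleen, of each kept macrophage marker gene in control (light) and knockout (dark) mice with its 95% confidence interval from limma (3 arrays per group), filled where the adjusted p was below 0.05. Clec10a, Cd163 and Lyz2 lie farthest right among the genes called in both genotypes, and the cathepsins Ctss, Ctsb and Ctsd lie around 0.

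**Figure D3:**
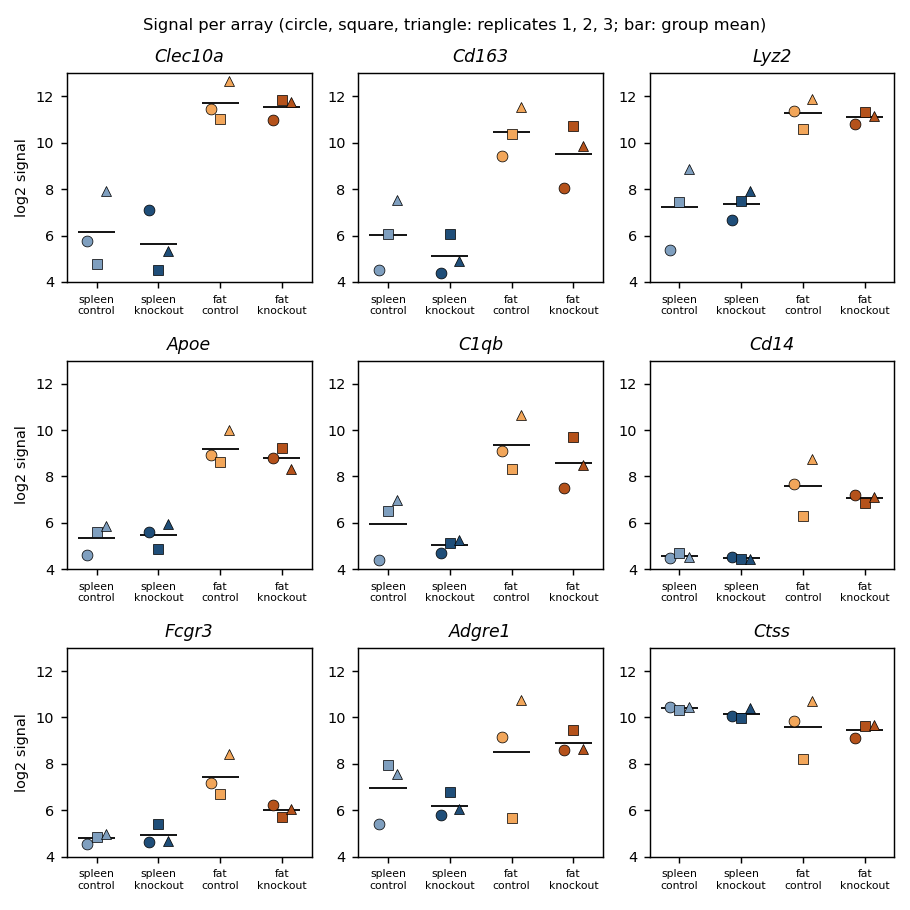
Log2 signal of 9 macrophage marker genes on each of the 12 arrays, with circle, square and triangle for replicates 1, 2 and 3 and a bar for the mean of the 3 arrays of a group. For Clec10a, Cd163, Lyz2, Apoe, C1qb, Cd14 and Fcgr3 all fat arrays lie above all spleen arrays, whereas Adgre1 has fat control 2 among the spleen values and Ctss overlaps between the tissues.

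Detection in fat alone could carry a gene through the filter, and such a gene had little room to be lower in fat. Of the 35 genes 6 were detected on 0 spleen arrays, 10 on 1 or 2, 11 on 3 to 5 and 8 on all 6, by the probe used. Among the 19 detected on 3 or more spleen arrays, 8 rose in controls and 7 in knockouts, and among the other 16 it was 6 and 4. The share of all kept probes called in these classes is not given here, so the counts do not measure what the filter contributed. Single arrays decided many calls. Without spleen control 1 the control calls of C1qb, Cd163, Mrc1, F13a1, Cybb and Cebpb were lost, at adjusted p 0.0544 to 0.101, and without spleen control 2 those of C1qb, Cst3, Cybb and Cebpb, at 0.0536 to 0.13. Without fat control 3 those of C1qb, Cst3 and Cybb were lost (0.0655 to 0.104), without fat control 1 those of C1qb and Cybb (0.0505 to 0.074), and without spleen control 3 those of Cst3 and Cybb (0.0649 to 0.066). Without spleen knockout 1 the knockout calls of C1qb, C1qc, Fcer1g, Cd163, Aif1, Lyz2 and Cebpb were lost (0.0541 to 0.0851), as was that of Cybb in controls (0.0511). Without spleen knockout 2 those of C1qb, C1qc, Fcer1g and Cebpb were lost (0.0552 to 0.0744), without spleen knockout 3 those of C1qb and C1qc (0.0533 to 0.0566), and without fat knockout 2 those of C1qb, C1qc and Cebpb (0.06 to 0.0762). With no detection filter the calls of Cd163, F13a1 and Cybb in controls (adjusted p 0.0581, 0.0512 and 0.0953) and of Fcer1g, Cd163, Aif1 and Cebpb in knockouts (0.0593, 0.0597, 0.0705 and 0.0597) were lost as well. Array names in the labels share a leading number among the 4 arrays of a replicate, read here as a slide. On slides 1, 2 and 3 the control fat array lay above the control spleen array for 32, 24 and 33 of the 35 genes, with median differences of 2.60, 1.14 and 2.75. In knockouts the counts were 27, 31 and 33 and the medians 1.40, 1.86 and 1.77. The name ends in 1 letter per group, and if that letter gives the position, effects of position and of group cannot be told apart.

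The promoters of all members with a RefSeq entry, 28 of the 39 genes with 35 starts, were searched for 3 short motifs in the 250 bases before the start (GRCm38.p6). The PU.1 motif GAGGAAG, on either strand, stood in 10 of the 35 (28.6%), 9 genes, against 10.6% of 32851 promoters of the same length. The C/EBP motif TTGCNNAA stood in 3 (8.57%, against 9.56%) and the E-box CACGTG in 2 (5.71%, against 6.02%). Overlapping windows of Fcgr3 hold the same PU.1 and C/EBP sites, so the starts behind these percents are not separate units. Of the genes called in either genotype, Fcgr3, Mrc1, C1qc and F13a1 held the PU.1 motif, and their windows are shown, 5′ to 3′ on the gene's strand, with motif matches in capitals (CTTCCTC is GAGGAAG read on the opposite strand, and TTAAGCAA in Fcgr3 is a C/EBP match).
Fcgr3, chr1:171059404-171059653, minus strand: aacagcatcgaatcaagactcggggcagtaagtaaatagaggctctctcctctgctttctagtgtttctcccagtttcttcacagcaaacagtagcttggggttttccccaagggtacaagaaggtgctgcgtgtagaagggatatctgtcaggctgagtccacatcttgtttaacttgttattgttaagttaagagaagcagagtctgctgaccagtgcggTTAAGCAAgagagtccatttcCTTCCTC
Mrc1, chr2:14229164-14229413, plus strand: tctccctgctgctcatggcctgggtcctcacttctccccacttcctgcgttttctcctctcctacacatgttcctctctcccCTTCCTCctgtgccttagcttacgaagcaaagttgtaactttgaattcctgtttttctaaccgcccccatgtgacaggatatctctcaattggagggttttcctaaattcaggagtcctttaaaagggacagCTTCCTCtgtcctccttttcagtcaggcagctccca
C1qc, chr4:136892915-136893164, minus strand: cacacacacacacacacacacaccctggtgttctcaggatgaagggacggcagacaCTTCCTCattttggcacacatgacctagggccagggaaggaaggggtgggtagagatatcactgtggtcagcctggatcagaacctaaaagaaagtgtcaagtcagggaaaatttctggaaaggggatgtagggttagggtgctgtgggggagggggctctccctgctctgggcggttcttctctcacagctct
F13a1, chr13:37050245-37050494, minus strand: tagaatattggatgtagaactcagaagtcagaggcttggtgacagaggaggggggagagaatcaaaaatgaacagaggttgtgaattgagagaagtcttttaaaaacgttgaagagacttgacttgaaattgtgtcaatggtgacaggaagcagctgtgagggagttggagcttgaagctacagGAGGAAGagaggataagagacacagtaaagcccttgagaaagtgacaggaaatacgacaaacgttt
The match in Fcgr3 begins 7 bases before the start, those in Mrc1 168 and 36 bases before it, that in C1qc 194 and that in F13a1 66. These are matches of letters, not measured binding. Marco and Itgam, which were not called, and Fcgr1 and Trem2, which were not kept, also held the motif, as did Fcgr4.

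The second question was whether these markers differ between libraries labelled T-bet knockout and control. In fat, 0 of the 48 member probes were called in either direction between knockouts and controls, where 0.00491% of all kept probes were called higher and 0.00491% lower, and limma gave 0 higher and 3 lower at an unadjusted p below 0.05, which 3.23% and 3.13% of all kept probes passed. Their median log2 fold change, knockout minus control, was -0.35 and that of all kept probes 0.00, and 39 of 48 were lower in knockouts. That shift rested on single arrays: it was 0.06 without fat control 3 and -0.98 without fat control 2. By slide, the median over the 35 genes was -0.55, 0.60 and -1.36 for slides 1, 2 and 3. The smallest p values belonged to Fcgr3 (-1.43, SE 0.43, 95% interval -2.37 to -0.50, limma adjusted p 0.513) and Cybb (-1.71, SE 0.55, 95% interval -2.90 to -0.51, adjusted p 0.571). All 3 fat control arrays lay above all 3 fat knockout arrays for Fcgr3 and Fcer1g, 2 of 35 genes (5.71%, against 4.16% of all kept probes), and the reverse held for 0 of 35 (4.33% of all kept probes).

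In spleen, 0 member probes were called between genotypes, as were 0% of all kept probes, and limma gave 0 higher and 1 lower at an unadjusted p below 0.05, which 1.4% and 0.943% of all kept probes passed. The median was -0.09. Gpnmb (+1.87, SE 0.90, 95% interval -0.09 to 3.84) and Aif1 (-1.86, SE 0.82, 95% interval -3.66 to -0.07) had the smallest p values, both with an adjusted p of 1. The interaction of tissue and genotype called 0 member probes and 0% of all kept probes (limma, unadjusted p below 0.05 for 0 higher and 1 lower, and for 2.01% and 1.81% of all kept probes). Calls made in 1 genotype alone, such as those of Mrc1, Fcgr3 and Cybb in controls or C1qc in knockouts, are therefore not shown to differ between genotypes. The interaction was -1.56 for Fcgr3 (SE 0.61, 95% interval -2.88 to -0.24) and -1.62 for Cybb (SE 0.78, 95% interval -3.31 to 0.07), each with an adjusted p of 0.9996. The median standard error was 0.626 over the member probes and 0.468 over all kept probes.

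Across the 6 fat arrays most markers varied together. Over 1112 pairs of member probes of different genes the median Pearson r was 0.616, with 86.2% of pairs above 0 and 38.8% at 0.7 or more. Pairs of a member probe with any other kept probe had a median r of 0.002 and 7.48% at 0.7 or more, and all pairs of kept probes had -0.006 and 6.84%. Restricting to probes detected on all 6 fat arrays gave 0.588 over 399 member pairs. These correlations share 6 arrays and are descriptions. Fat control 3, highest for 28 of 35 genes, weighs heavily: without it the median r was 0.285. With genotype means removed it was 0.664 and with slide means removed 0.690.

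Set against the mean of the other members, 22 of 35 genes had r of 0.7 or more and 31 were above 0, with a median of 0.822. By Pearson r, Lyz2 (0.978), Csf1r (0.970), Clec10a (0.958), Fcgr2b (0.947) and Cst3 (0.937) followed the rest most closely. Their Spearman rho was 0.94, 0.77, 0.77, 0.94 and 0.71. Ctss (r 0.923) and Ctsb (r 0.884) also followed, although neither differed between the tissues in the test. Their fat values were highest on fat control 3 (10.73 and 11.49) and lowest on fat control 2 (8.19 and 10.35). Csf1r, Folr2, Mertk and Lyve1, none of which was called, had r of 0.970, 0.914, 0.922 and 0.926. They were detected on only 4, 4, 2 and 3 of the 6 fat arrays and were highest on fat control 3, so undetected values and 1 bright array enter these r. The same holds for Fcgr2b, detected on 4 of the 6 fat arrays and highest on fat control 3. Members that did not follow included Ms4a7 (-0.11) and Cebpb (0.23), both called in both genotypes, with Gpnmb (-0.23), Itgam (-0.22), Marco (-0.03), Ctsd (0.32) and Aif1 (0.34). With slide means removed Cebpb had r 0.95 and Gpnmb 0.47, while Ms4a7 had -0.83 and Marco -0.93.

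**Figure D4:**
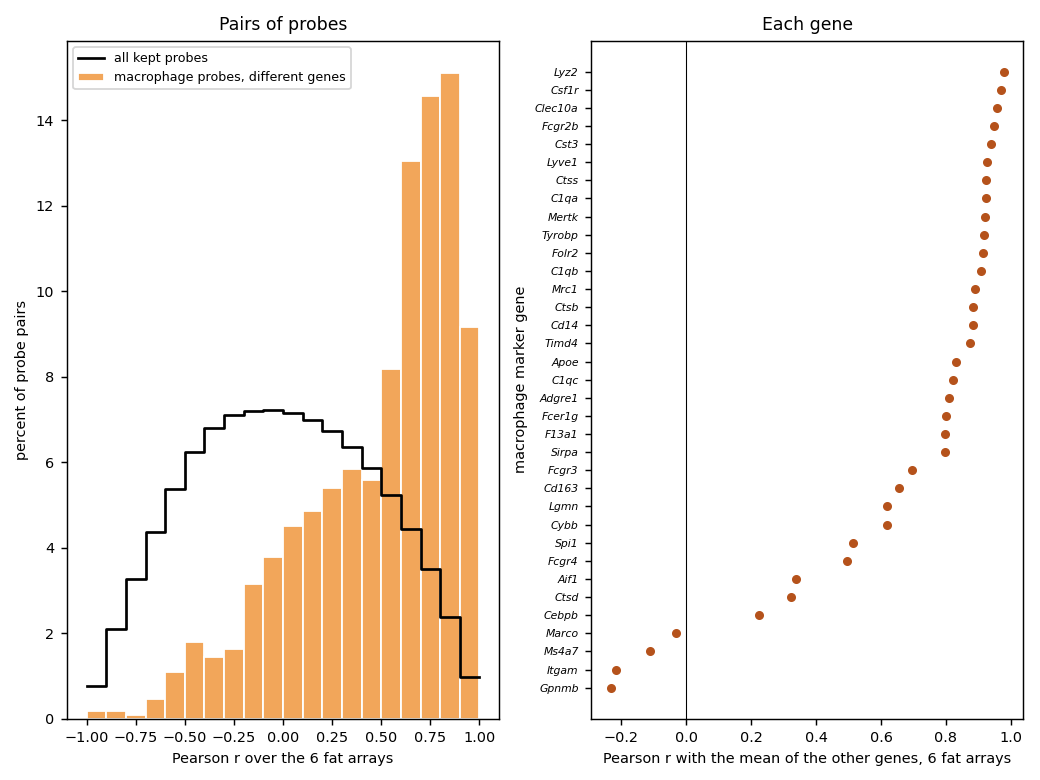
Left, bars give the percent of 1112 pairs of macrophage marker probes of different genes by their Pearson r over the 6 fat arrays and the line gives all pairs of kept probes. Right, each point is the Pearson r of 1 gene with the mean of the other members over the 6 fat arrays; the marker pairs are shifted to high r, while Marco, Ms4a7, Itgam and Gpnmb lie below 0.

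Other gene lists were measured on the same arrays, each by the mean log2 signal of its kept genes. Over all kept probes 2.9% rose and 1.77% fell in fat of controls, and 2.83% rose and 1.7% fell in fat of knockouts. A single call in a short list cannot be weighed against these shares. Among myeloid genes outside the marker set, 25 of 36 were kept, 4 rose in fat of controls and 2 in fat of knockouts, and 0 fell. The chemokines Ccl9 (+5.14, adjusted p 0.000739 in controls and +4.62, adjusted p 0.0016 in knockouts) and Pf4 (+4.65, adjusted p 0.00209 and +3.86, adjusted p 0.00674) led them. Over the 6 fat arrays the list mean went with the member mean at Pearson r 0.92 and Spearman rho 0.94, and at r 0.74 without fat controls 2 and 3, the 2 arrays farthest from the median. Lysosomal genes, 12 of 16 kept, had r 0.97 and 0.96 without those arrays, and 1 rose in controls (Grn, progranulin, +2.29, adjusted p 0.0223) and 2 in knockouts (Ctsh, +3.46, adjusted p 0.0189, and Lamp2, +2.49, adjusted p 0.035). MHC class II genes, which macrophages, dendritic cells and B cells use to present antigen, rose for 3 of 7 kept in controls and 4 in knockouts, led by H2-Eb1 (+4.40, adjusted p 0.00114 and +3.83, adjusted p 0.0032), and had r 0.88, or 0.45 without those arrays.

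Markers of other cells that fat preparations could hold were mostly not called, but few genes per list were kept. At the shares of all kept probes given above, 0 calls among so few genes do not show absence. The list mean in the fat controls, fat knockouts, spleen controls and spleen knockouts ran from 6.05 to 7.58, 6.11 to 6.45, 5.65 to 5.99 and 5.73 to 6.07 for 5 of 8 dendritic cell genes kept, of which 0 were called. For 3 of 9 B cell genes kept it ran from 5.82 to 7.65, 6.32 to 6.77, 6.28 to 6.63 and 6.41 to 6.65, again with 0 called. Both lists had their highest mean on fat control 3 and went with the member mean over the fat arrays at r 0.90 and 0.71, and at 0.13 and -0.83 without fat controls 2 and 3. Neutrophil genes (6 of 10 kept, 0 called) had median differences from spleen of +1.54 in controls and +1.95 in knockouts. Their mean ran from 4.86 to 8.52 and 5.53 to 7.87 in the fat groups and 4.62 to 4.95 in spleen. Of the 6 fat arrays it was lowest on fat control 3, where the macrophage markers were highest (r -0.70 with the member mean, and 0.06 without fat controls 2 and 3). The mast cell protease Cpa3 rose in controls (+1.82, adjusted p 0.0136), 1 of 3 mast cell genes kept of 6, whose mean was also highest on fat control 3 at 6.55 (r 0.86, and 0.50 without fat controls 2 and 3). Fabp4, a fatty acid carrier of adipocytes that macrophages and endothelium also make and the 1 gene kept of 8 adipocyte genes, read 9.63, 11.37 and 7.12 in the fat controls and 9.66, 10.95 and 7.01 in the fat knockouts (+4.83, adjusted p 0.0182 and +4.61, adjusted p 0.0232 against spleen). Adiponectin (Adipoq) and leptin (Lep) were not kept. Of stromal and endothelial genes 1 of 8 and 2 of 6 were kept and 0 were called. The kept stromal gene read 4.49 to 6.26 in the fat controls, 4.49 to 7.92 in the fat knockouts and 4.38 to 4.52 in spleen. Over the fat arrays r with the member mean was -0.61 for Fabp4, -0.15 for the stromal gene and -0.87 for the endothelial genes. Without fat controls 2 and 3 these were 0.12, 0.68 and -0.68. Of 8 CD8 T cell and natural killer cell genes 6 were kept, and 1 was called, the transcription factor Eomes in knockouts (+2.29, adjusted p 0.0366). Their mean went with the member mean at r 0.64, and 0.46 without fat controls 2 and 3. What part other cells had in the macrophage signal was not tested.

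The T cell programme itself did not follow the markers. T cell genes, 11 of 13 kept, ran from 8.90 to 9.38 in the fat controls, 9.20 to 9.30 in the fat knockouts and 9.64 to 9.87 in spleen, so every fat array was below every spleen array, and 1 gene fell, Trat1 in controls (-2.35, adjusted p 0.0222). The medians were -0.62 in controls and -0.80 in knockouts. Over the fat arrays the T cell mean had r -0.51 with the macrophage mean, and 0.11 without fat controls 2 and 3. Means of the kept Treg genes ran from 7.89 to 8.33 in the fat controls and 8.54 to 8.69 in the spleen controls. In knockouts the Treg means ran from 8.64 to 8.68 in fat and 8.20 to 8.93 in spleen. Of 9 Treg genes kept of 10, Izumo1r (-3.44, adjusted p 0.000239 and -3.05, adjusted p 0.000503) and Gpr83 (-3.63, adjusted p 0.00213 and -2.40, adjusted p 0.0219) fell in both genotypes, and in knockouts Il2ra and Tnfrsf4 rose (+1.69, adjusted p 0.0324 and +1.20, adjusted p 0.0326). Genes of adipose Tregs rose for 10 of 11 kept in each genotype, among them the cytokine Il5 (+7.50, adjusted p 2.89e-06 and +6.85, adjusted p 3.91e-06). Their mean was level over the fat arrays, 10.02 to 10.52, while the macrophage mean ranged from 7.13 to 9.14, and the 2 had r -0.26 and rho 0.03 over 6 arrays, and r -0.95 over the 4 arrays left without fat controls 2 and 3. The 11 kept genes of that list had a median r of -0.20 with the macrophage mean. Within the list the scavenger receptor Cd36, chosen after its value was seen, had r 0.88 and Il5 had r -0.61.

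**Figure D5:**
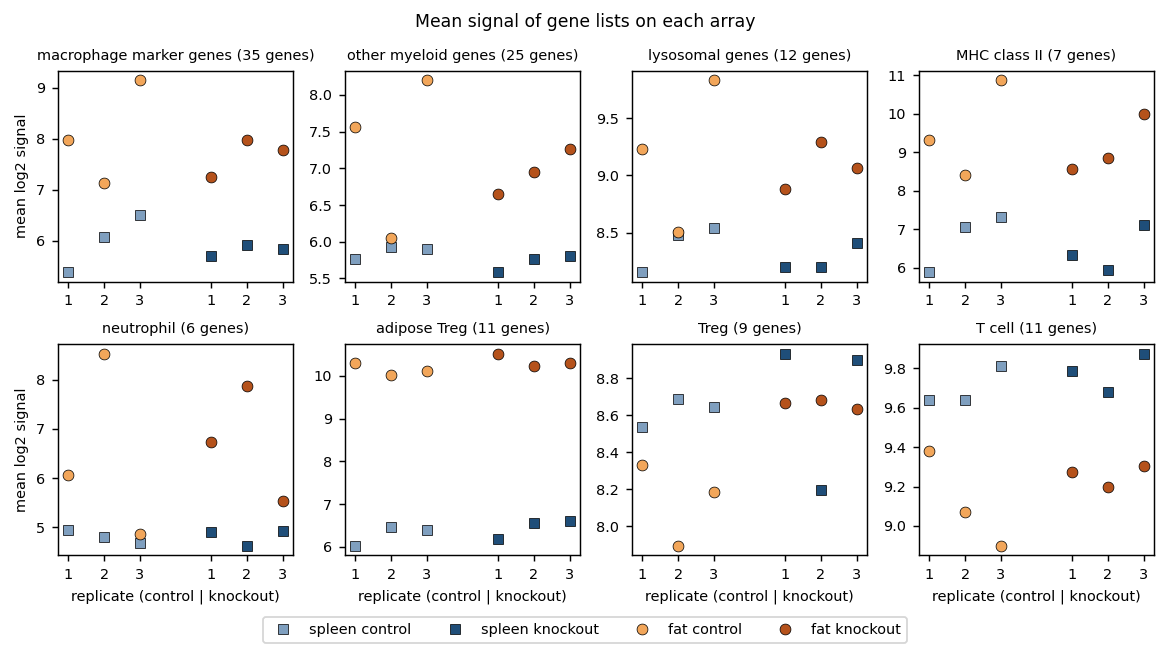
Mean log2 signal of the kept genes of 8 lists on each of the 12 arrays, by replicate, with squares for spleen and circles for fat and darker fill for knockouts; each panel has its own vertical range, which does not start at 0. The macrophage, other myeloid, lysosomal and MHC class II panels share the same highest array, fat control 3, whereas adipose Treg genes are level among the fat arrays and neutrophil genes are lower on that array than on the other fat arrays.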

How the data were processed

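Tregs of 4 groups were profiled on 12 Illumina bead arrays. The authors deposited bead intensity per probe and array, linear and not normalized, with detection p-values per the file headers, and a table of normalized intensity used here as an alternative. GenomeStudio is named in the submitters' processing notes, its version not given in the sources used here. Per the labels' protocols, RNA was isolated with Qiagen Allprep and amplified with NuGEN Ovation Pico WTA V2.

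With limma 3.58.1 (R 4.3.3), the nec function subtracted background, using the detection p-values in place of control probes and an offset of 16, after which intensities were quantile normalized and put on the log2 scale. Symbols came from the platform annotation (34885 probes with 1 symbol, 18 with several, 10378 with none), and the Entrez numbers of all 61 member probes gave the same symbols. Group means were estimated by limma from all 12 arrays together over 20367 kept probes (8 residual and 3.97 prior degrees of freedom). The 3 arrays per group limit precision.

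All members with a kept probe could be named. In the genotype comparisons these are the 2 with the smallest p, and in other lists up to 2 called genes with the largest change, with values of a few further genes chosen after they were seen (Foxp3, Cd3e, Cd36, Il2ra and Tnfrsf4). Members, lists and motifs were chosen with earlier results of these data known. No 2 arrays held identical values. Replicate numbers follow the labels. Deviations of same-numbered arrays from their group means correlated at -0.053 to 0.354, above 0.1 for 5 of 18 pairs. Those of arrays with different numbers correlated at -0.251 to 0.126, so same-numbered arrays reached higher values. The main test took no pairing, and the replicate number as a block was run as an alternative. Alternatives were normalization, background correction, filter, probes per gene, slide block, variance trend and each array left out.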

Additional observations from a re-analysis of the deposited data

How the results depend on the processing

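In controls 20 member probes rose in fat, 19 to 21 under cyclic loess, median scaling, the deposited normalized table, no background correction, a stricter detection filter, a variance trend and the replicate block (21, adding Tyrobp), 14 with 1 probe per gene and 12 with no detection filter, where 45281 probes were tested. In knockouts 15 rose, 11 to 17 under the same alternatives (15 with the replicate block) and 7 with no filter. The median log2 fold change of the members, 2.00 in controls and 1.61 in knockouts, was 1.09 and 0.76 with the deposited normalized table and 1.19 and 0.83 with no background correction. Leaving out 1 array gave 10 to 23 in controls and 5 to 20 in knockouts. Higher calls over all kept probes then ran from 303 to 598 in controls and 309 to 638 in knockouts. Of the called genes 7 of 14 in controls (Apoe, Cd14, Clec10a, Fcer1g, Fcgr3, Lyz2 and Ms4a7) and 3 of 11 in knockouts (Apoe, Clec10a and Ms4a7) kept their call under every alternative. Comparisons of genotype and the interaction gave 0 called members under each alternative run, with or without the replicate block. Calls over all probes, 590 higher and 360 lower in controls, were 679 and 267 under cyclic loess and 645 and 209 under median scaling, and in knockouts 576 and 347 became 617 and 250, then 672 and 180. The median pairwise r of 0.616 ranged from 0.285 (without fat control 3) to 0.699 on leaving out 1 array, and was 0.690 with slide means removed as a replicate block.

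Directions turned only for genes that were not called. In knockouts the log2 fold change of Ctsd, -0.02, was 0.12 under cyclic loess, 0.36 under median scaling and 0.00096 with the deposited normalized table, and ranged from -0.21 to 0.24 with 1 array left out. With 1 array left out, Marco ranged from -0.41 to 0.12, Fcgr4 from -0.054 to 2.08 and Mertk from -0.032 to 1.20 in controls, and Mertk ranged from -0.022 to 0.099, Gpnmb from -1.52 to 0.12 and Spi1 from -0.16 to 0.54 in knockouts. The cause was not tested. Low signal over background limits dim genes: 16 of 35 were detected on under 3 spleen arrays.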
